A study of Mus musculus with 24 samples.

Results

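Hearts of mice that lack the prostaglandin receptor EP4 in the heart were compared within the genotype, those with low against those with high ejection fraction (EF, the share of its blood that the left ventricle expels per beat). The members were taken by the sample titles and are 13 of the 24 samples of the series: 6 cardiac-specific knockout (KO) hearts titled low EF, replicates 1 to 6, and 7 titled high EF, replicates 7 to 13. The 11 wild-type (WT) hearts gave a reference level and entered no test of the EF classes unless named. The array of KO high EF replicate 11 had lost many of its bright probes. Tests therefore set 6 low EF against 6 high EF hearts, and the counts with replicate 11 stand beside them.

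Total RNA of the left ventricle was hybridised for each male mouse, all of mixed genetic background, to 1 Illumina mouse array. No treatment is named for any mouse. EF was 24.8 ± 6.96% in the low EF hearts (SD, n = 6; 13.7, 24.95 and 34% as lowest, median and highest), 56.8 ± 10.4% in the high EF hearts (SD, n = 7; 45.9, 53.7 and 76.4%) and 79.5 ± 4.66% in WT (SD, n = 11; 71.4 to 86.1%). EF formed the classes and was not tested. Replicate 13, at 76.4%, lay within the WT range although it is titled high EF among the KO hearts. Mean age was 30.75 weeks in the low EF, 30.6 in the high EF and 31.5 in the WT mice. The KO classes differed in age by 0.179 weeks (two-sided exact permutation p = 0.904, 6 against 7), and by 0.667 weeks without replicate 11 (exact permutation p = 0.576). The promoter and recombinase behind the cardiac deletion, and whether the WT mice carried that recombinase, are not given here. Each heart comes from a separately labelled mouse; whether any shared a litter is not given.

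EP4, encoded by Ptger4, is a receptor for prostaglandin E2 that raises cyclic AMP through a stimulatory G protein. The adult ventricle makes most of its ATP by oxidising fatty acids in mitochondria, and its fibroblasts maintain a collagen scaffold that lysyl oxidases crosslink. A stretched or failing ventricle is known to re-express genes of the fetal heart, to lower genes of fuel oxidation and of the potassium currents that end the action potential, and to lay down matrix.

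The number of arrays limits the precision, since arrays carry no depth. The raw median intensity per array ran from 106 to 155, with the lowest on replicate 11. That array correlated with the rest at a median of 0.839, where the 23 others gave 0.974 to 0.987, and 850 of 5413 bright probes lay under its own median, against at most 17 on any other array. Arrays share a label prefix in sets of 6, read here as chips. On chip 055 lay 3 low EF and 2 high EF hearts, on chip 046 2 low and 1 high, on chip 006 1 of each, while chip 058 held no low EF heart but 3 high EF hearts, replicates 11, 12 and 13. WT hearts lay on all 4 chips. WT replicates 8 to 11 stood apart on 6 atrial markers, with a mean level of 10.22 to 11.48 against at most 9.84 in the other WT hearts and 9.96 in the 12 KO hearts. The WT ranges below include them, and their part in those ranges was not tested.

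The targeted gene did not separate the classes. Ptger4 measured 6.64, 6.88 and 6.99 (lowest, median and highest heart) on the normalized log2 scale in low EF and 6.50, 6.95 and 7.40 in high EF hearts, against 6.70 to 7.16 in WT and 8.00 on replicate 11. Apart from replicate 11 these values lie close to the array median of 6.75, so the probe was near background, and its place relative to the deleted part is not known here. The difference between the classes was -0.10 ± 0.13 (log2, low EF minus high EF, ± standard error; limma, adjusted p = 0.768), as for all differences below. Of the 14 measured cardiomyocyte markers, 1 passed the threshold between the classes as lower (Pln), against 2.58% of all genes. None of the 14 passed with replicate 11 or with a fixed chip term. Their mean level was 15.16 to 15.27 in low EF, 15.26 to 15.34 in high EF and 15.32 to 15.47 in WT hearts, near the top of the scale at 16.04.

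In low EF hearts RNA of 9 of 23 collagen genes, 13 of 37 other matrix genes and 8 of 35 matrix enzyme genes was higher than in high EF hearts of the same genotype. RNA of 21 of 42 fatty acid genes and 8 of 29 tricarboxylic acid cycle and pyruvate genes was lower. So was that of 7 of 23 ketone body and branched-chain amino acid genes and 6 of 34 ion channel genes. With replicate 11 in the fit the rises were 2, 1 and 0 and the falls 8, 2, 2 and 2, in the order given. Under a fixed chip term the rises were 1, 0 and 0 and the falls 2, 1, 0 and 2. Of 22593 probes tested, 892 (3.95%) passed limma at a Benjamini-Hochberg adjusted p under 0.05, 366 higher (1.62%) and 526 lower (2.33%) in low EF hearts, and 4060 had an unadjusted p under 0.05. Most differences were small: 18 probes were called at least 2-fold higher and 14 at least 2-fold lower. Counted once per gene, on its brightest kept probe, 581 of 12643 genes (4.6%) passed, 255 higher (2.02%) and 326 lower (2.58%), with a median difference of 0.01 over all genes. Each list count below is to be read against these shares. The 6 low EF hearts all lay above the 6 high EF hearts for 130 genes (1.03%) and all below them for 173 genes (1.37%).

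The count of calls depended on single arrays and on how the chip entered the fit. With replicate 11 it was 118 of 23029 probes (0.512%), 34 higher (0.148%) and 84 lower (0.365%), all among the 892. A fixed chip term left 34 (0.15%), 11 higher (0.0487%) and 23 lower (0.102%), of which 32 were shared. As chip 058 held no low EF heart, replicates 12 and 13 did not inform that difference, which rested on 6 low EF against 4 high EF hearts. In counts under chip blocking, a chip effect and this loss of hearts cannot be told apart. When WT hearts joined that blocked fit the count was 811 (3.59%), 350 higher (1.55%) and 461 lower (2.04%), of which 634 were shared. This fit was added after the data were seen, and its chip terms draw on the WT hearts, replicates 8 to 11 among them. Leaving out 1 heart gave 305 calls without replicate 13, 398 without 2, 448 without 12, 453 without 10, 541 without 3, 544 without 1, 585 without 9, 594 without 5 and 1565 without 8, each over 1.5 times from 892. Differences of the called probes had the sign of the whole comparison in all of them within chip 055, in 98.9% within chip 046 and in 87.1% within chip 006, where 1 heart stood against 1. These probes were called on the same arrays, which favours a shared sign. Without chip 058, which left 6 low EF against 4 high EF hearts, 23 probes passed (7 higher, 16 lower). Within chip 055 alone 126 passed, and with the chip as a random term 896.

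**Figure D1:**
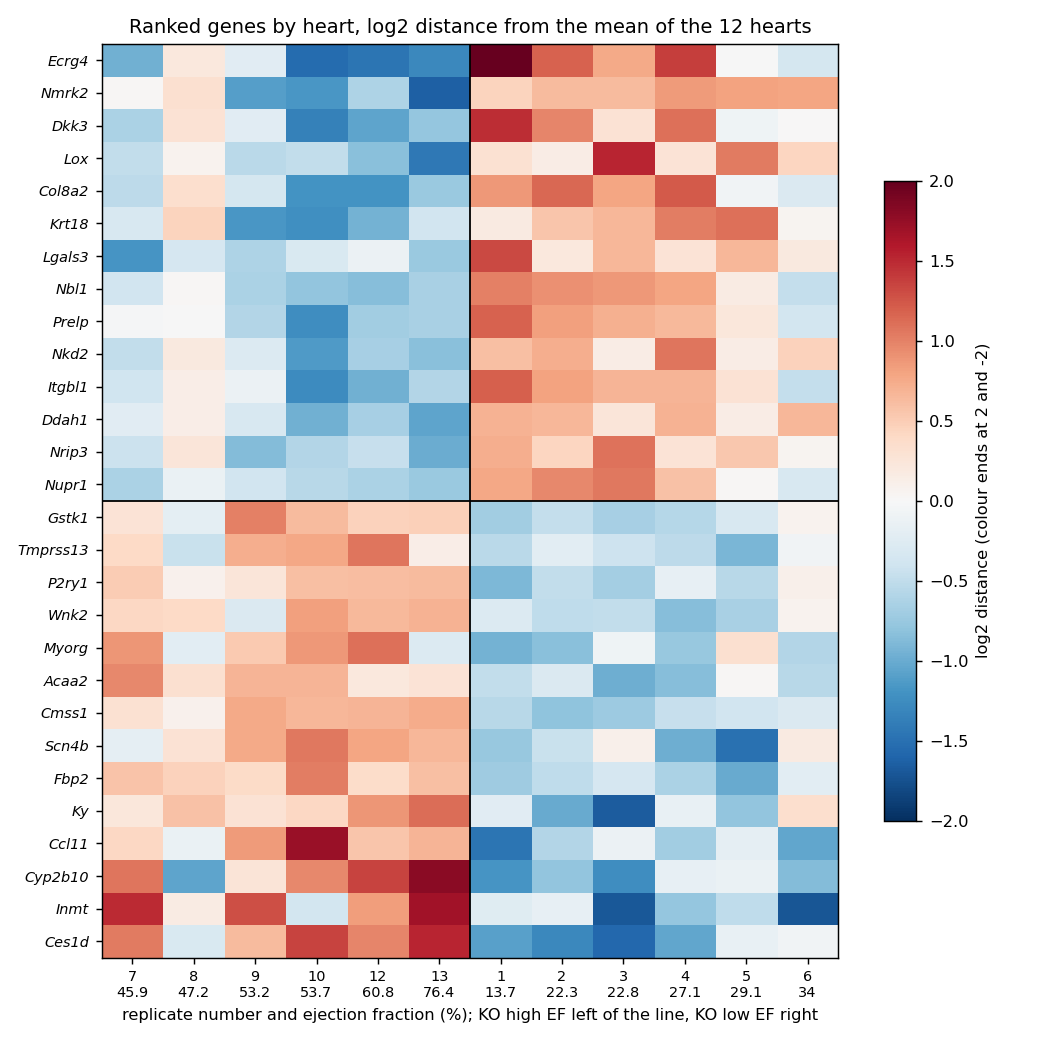
Level of 14 of the 15 largest rises (upper block) and 14 of the 15 largest falls (lower block) past the threshold in each of the 12 KO hearts, as log2 distance from the gene's mean over those hearts, with red for higher and blue for lower. Columns carry the replicate number and EF in percent, and replicate 8, at 47.2%, is the high EF heart nearest to the low EF group for 22 of the 30 genes.

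Over the 30 genes with the largest called differences, 15 each way, which were chosen for that separation, replicates 8 and 6 were the hearts most often nearest to the other class. Replicate 8 (high EF, 47.2%) was the high EF heart nearest to the low EF group for 22 of the 30 genes. Replicate 7, with the lowest EF of its class (45.9%), was nearest for 2. In the low EF group replicate 6, with the highest EF (34%), was nearest to the high EF hearts for 19 genes. Replicates 10 and 13 lay farthest from the low EF group for 11 genes each, and replicate 1, with the lowest EF (13.7%), lay farthest from the high EF group for 10. All 30 genes kept their sign under each of the 28 alternatives, 1 of which tested 29 of them. Within single chips Scn4b (chip 046) and Cyp2b10 (chip 006) had the opposite sign. Of the 30, 20 passed in all 12 fits that leave out 1 heart. With replicate 11 in the fit 9 passed, under a fixed chip term 4, and with the WT hearts added to that block 26. Without chip 058 3 passed, and within chip 055 alone 13.

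Of the 30 pathway lists examined, the fatty acid list held the most falls. Of 42 measured genes of fatty acid uptake, storage and oxidation, 21 fell and none rose in low EF hearts, with a median difference of -0.34, against 2.58% of all genes lower and a median of 0.01. The mean level of the 42 genes was 11.95 to 12.01 in low EF, 12.20 to 12.52 in high EF and 12.61 to 12.96 in WT hearts, so the KO classes did not overlap. In RNA of whole ventricle, fewer cells of a type and less RNA per cell cannot be told apart. The median was -0.42, -0.31 and -0.19 within chips 055, 046 and 006. It was -0.34 under chip blocking, where 2 genes passed, and -0.36 with replicate 11, where 8 passed, while 18 passed with WT hearts in the blocked fit. Without replicate 13 the count was 11, and it was 14 to 25 with any other heart left out.

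Acaa2, the thiolase of the last step of mitochondrial beta-oxidation, measured 11.07, 11.53 and 12.08 in low EF and 12.26, 12.54 and 13.00 in high EF hearts, 12.86 to 13.81 in WT and 13.75 on replicate 11. No low EF heart reached the lowest high EF heart. The difference was -1.04 ± 0.16 (2.05-fold lower; limma, adjusted p = 0.0077, 0.000793 to 0.0543 over the alternatives), and its 3 further probes fell by 0.68 to 0.77. Ces1d, a carboxylesterase that splits triglycerides in mouse fat and liver, was lower still: 9.84, 10.34 and 11.33 in low EF, 11.11, 12.41 and 12.94 in high EF, 12.51 to 13.83 in WT hearts and 12.17 on replicate 11. The classes overlapped in the lowest high EF heart, replicate 8, and the difference was -1.74 ± 0.30 (3.34-fold lower; adjusted p = 0.00908, 0.000793 to 0.076 over the alternatives).

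The steps before and around beta-oxidation fell as well. Plin5, which coats the lipid droplets that feed mitochondria, measured 11.27, 11.31 and 11.36 in low EF against 11.62, 11.89 and 11.95 in high EF hearts, with 12.06 to 12.35 in WT, and no heart of the 2 classes overlapped (-0.53 ± 0.07; adjusted p = 0.00599). Acsl1, which activates long-chain fatty acids, measured 11.73, 11.97 and 12.23 against 12.25, 12.57 and 12.67 (-0.56 ± 0.09; adjusted p = 0.00908). Etfdh, which passes electrons from beta-oxidation to ubiquinone, measured 12.53, 12.72 and 12.76 against 12.97, 13.25 and 13.41 (-0.53 ± 0.09; adjusted p = 0.00782). Neither gene overlapped between the classes. Cpt2 and Slc25a20, of the carnitine route into mitochondria, differed by -0.37 ± 0.08 and -0.47 ± 0.09. The beta-oxidation enzymes Hadh, Hadhb, Acads, Echs1, Eci1, Eci2, Decr1 and Ech1 fell by between 0.76 ± 0.16 (Hadh) and 0.32 ± 0.08 (Echs1). The acyl-CoA thioesterases Acot1 and Acot2 differed by -0.97 ± 0.20 and -0.57 ± 0.13, and Mlycd, which removes the malonyl-CoA that blocks fatty acid entry, by -0.50 ± 0.10. Dgat2, of triglyceride synthesis, Slc27a1, a fatty acid transporter, and Etfa, which takes electrons from acyl-CoA dehydrogenases, were the remaining 3 of the 21.

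**Figure D2:**
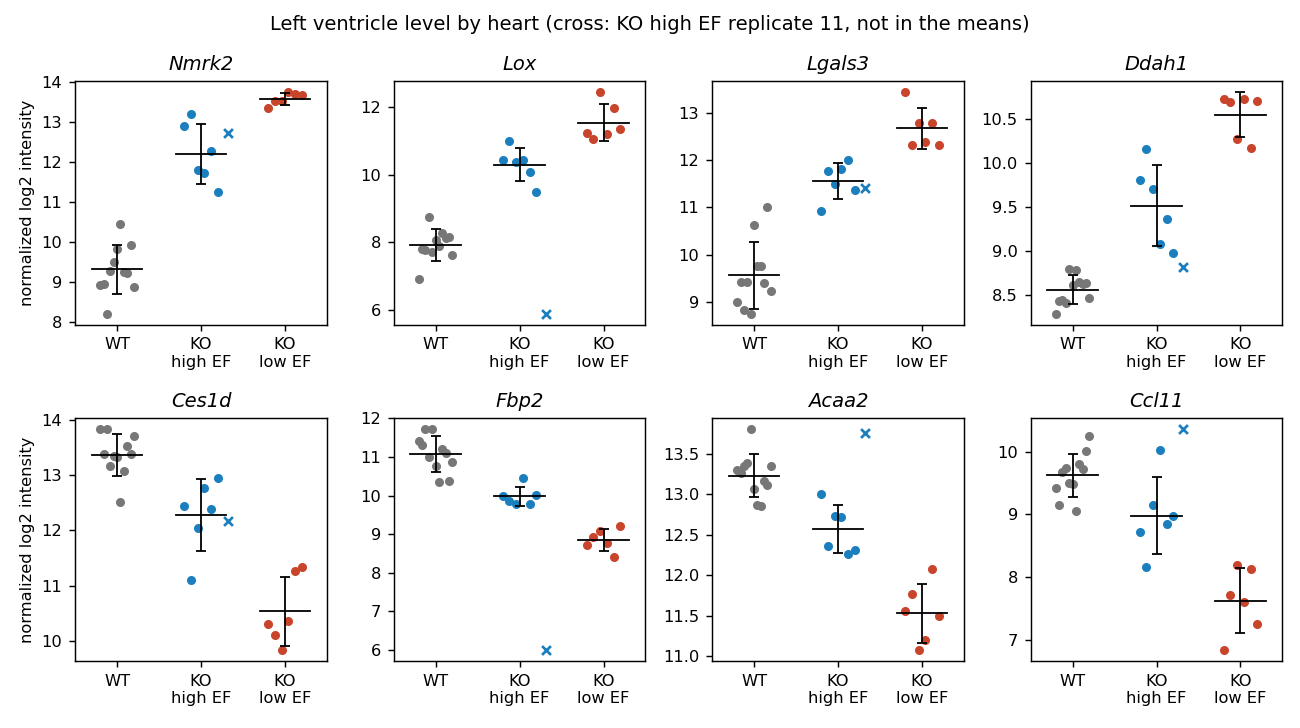
Normalized log2 intensity of 4 genes that rose (upper row) and 4 that fell (lower row) in low EF hearts, 1 point per heart, with the mean and SD of each group as bars and replicate 11 as a cross outside the means. The low EF hearts lie above the high EF hearts for Nmrk2, Lox, Lgals3 and Ddah1 and below them for Fbp2 and Acaa2, while 1 or more hearts overlap for Ces1d and Ccl11.

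Tricarboxylic acid cycle and pyruvate entry genes fell in 8 of 29 measured (median -0.25), against 2.58% of all genes, and rose in none. Their mean level was 12.05 to 12.15 in low EF and 12.23 to 12.37 in high EF hearts, without overlap, and 12.45 to 12.71 in WT. Pdp2, the phosphatase that switches pyruvate dehydrogenase on, measured 10.51, 10.85 and 11.03 against 11.24, 11.42 and 11.72, with 12.12 to 13.32 in WT (-0.66 ± 0.10; adjusted p = 0.0077). Sdhd, a membrane subunit of succinate dehydrogenase, measured 10.93, 11.07 and 11.24 against 11.42, 11.53 and 11.72, with 11.55 to 12.22 in WT (-0.46 ± 0.08; adjusted p = 0.00908). Dlat and Dld of the pyruvate dehydrogenase complex differed by -0.41 ± 0.08 and -0.44 ± 0.11, citrate synthase (Cs) by -0.33 ± 0.07, Idh3a by -0.33 ± 0.08 and Mdh2 by -0.34 ± 0.08. Pdp2, Sdhd and Dlat did not overlap between the classes. Mpc2, a subunit of the mitochondrial pyruvate carrier, fell by 0.49 ± 0.08 over 6 against 6 hearts, but replicate 11 read 6.01 on its probe and turned the difference to 0.27 (adjusted p = 0.897; 0.00168 to 0.897 over the alternatives). The count was 4 without replicate 2 or 13, 5 without 3 or 10 and 15 without 8. With replicate 11 it was 2, under chip blocking 1, and with WT hearts in the blocked fit 10.

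Respiratory chain genes differed less but in 1 direction. Of 71 measured nuclear subunits of complexes I, III, IV and V with cytochrome c, 68 lay below 0, 8 passed as lower and none as higher, with a median of -0.15. Of all 12643 genes, 6068 lay below 0 and 2.58% passed as lower. The mean level of the 71 was 14.14 to 14.24 in low EF, 14.25 to 14.42 in high EF and 14.43 to 14.53 in WT hearts. Ndufb4, a complex I subunit, measured 9.38, 9.60 and 9.71 against 9.94, 10.04 and 10.12, without overlap, and 9.80 to 10.61 in WT (-0.47 ± 0.07; adjusted p = 0.0077). The other subunits past the threshold, Ndufb5, Ndufb11, Ndufa9, Ndufs3, Ndufa8 and Ndufb9, also belong to complex I, and Cycs is cytochrome c (-0.36 ± 0.09). No gene of the list passed with replicate 11 or under chip blocking, and 7 did with WT hearts in the blocked fit. Leaving out 1 heart gave 1 (without 2, 3 or 13), 2 (without 5, 10 or 12), 3 (without 1 or 9) or 13 (without 8).

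Among 30 regulators of energy metabolism, 4 fell, against 2.58% of all genes, and none rose (median -0.14). Ppargc1a encodes PGC-1alpha, a coactivator of mitochondrial genes, Tfam packages mitochondrial DNA and starts its transcription, Esrrg is an estrogen-related receptor active in heart muscle, and Rxrg is a retinoid X receptor. Ppargc1a measured 9.91, 10.08 and 10.11 in low EF and 10.25, 10.43 and 10.61 in high EF hearts, with 10.60 to 11.21 in WT. Esrrg measured 9.84, 9.89 and 10.02 against 10.05, 10.28 and 10.48, with 10.45 to 11.06 in WT. Neither gene overlapped between the classes. Their differences were -0.39 ± 0.08 (adjusted p = 0.0147) and -0.36 ± 0.09 (adjusted p = 0.0296), and those of Tfam and Rxrg -0.31 ± 0.08 and -0.53 ± 0.12. The count was 1 with replicate 11 and 0 under chip blocking, 4 with WT hearts in the blocked fit, and 1 without any of replicates 1, 2, 3, 9, 12 or 13. Without 5, 7 or 10 it was 2, and 6 passed without 6 or 8.

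Estrogen-related receptors are known to bind the letters AAGGTCA. In RefSeq promoter windows of GRCm38.p6, 300 bases long around a gene's start, these letters stood on either strand in 1550 of 32851 windows (4.72%). Of the genes past the threshold on the fatty acid, tricarboxylic acid and respiratory chain lists 31 had a window, and 2 of them held the letters (6.45%). The 4.72% counts windows, and the 6.45% counts genes with the letters in any of their windows, so the shares are unlike measures. The windows are shown because they are the 2 among these falling genes that hold the motif, and each is written 5′ to 3′ on the gene's strand with the match in capitals. The match of Sdhd lies on the opposite strand, at position 36 from the start, and that of Ndufb4 on the gene's own strand at position -55. A match is a description and does not show that a receptor binds there.
Sdhd, chr9:50603800-50604099, minus strand: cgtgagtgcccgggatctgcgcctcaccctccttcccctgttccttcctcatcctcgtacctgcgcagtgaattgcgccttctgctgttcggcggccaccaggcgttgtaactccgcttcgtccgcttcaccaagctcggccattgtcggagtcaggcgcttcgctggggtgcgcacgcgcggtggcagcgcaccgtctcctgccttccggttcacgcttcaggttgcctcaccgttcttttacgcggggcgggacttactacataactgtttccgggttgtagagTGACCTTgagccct
Ndufb4, chr16:37654319-37654618, minus strand: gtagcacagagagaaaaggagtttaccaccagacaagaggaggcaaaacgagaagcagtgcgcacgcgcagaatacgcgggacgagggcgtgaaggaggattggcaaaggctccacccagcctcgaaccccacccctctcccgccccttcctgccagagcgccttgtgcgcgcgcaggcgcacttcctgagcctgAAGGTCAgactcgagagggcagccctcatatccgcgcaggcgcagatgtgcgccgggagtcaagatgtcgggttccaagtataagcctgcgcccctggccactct

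Ketone body and branched-chain amino acid breakdown fell in 7 of 23 measured genes, against 2.58% of all genes, and rose in none (median -0.34). Dbt, of the branched-chain ketoacid dehydrogenase, measured 10.62, 10.79 and 10.92 against 11.02, 11.31 and 11.43, and Aldh6a1, of valine breakdown, 11.51, 11.73 and 11.92 against 11.99, 12.17 and 12.25. Both were without overlap, with differences of -0.47 ± 0.09 and -0.42 ± 0.08 (adjusted p = 0.013 and 0.0122). Ppm1k, the phosphatase that switches that dehydrogenase on, differed by -0.66 ± 0.17, and Ivd, Acad8, Mccc2 and Pcca were the others. The count was 2 without any of replicates 2, 3, 5, 9, 10, 12 or 13, 4 without 4 and 14 without 8. It was 2 with replicate 11, 0 under chip blocking and 10 with WT hearts in the blocked fit.

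Glucose genes held no common direction, with 18 above and 20 below 0. Of 38 measured genes of glucose transport, glycolysis and glycogen, 1 rose and 5 fell (median -0.01). Of all genes 2.02% were higher and 2.58% lower, so the 1 rise is near the share of all genes. Fbp2, the muscle fructose bisphosphatase, measured 8.41, 8.85 and 9.21 in low EF and 9.79, 9.93 and 10.45 in high EF hearts, with 10.35 to 11.73 in WT. No heart of the classes overlapped, and the difference of -1.13 ± 0.14 (2.19-fold lower) had the lowest adjusted p of the ranked genes (0.00222, shared with Cmss1). Replicate 11 read 5.99, which moved the difference to -0.56 (adjusted p = 0.725; 0.000495 to 0.725 over the alternatives). The glucose transporters moved in opposite directions. Slc2a4, or GLUT4, which insulin brings to the membrane, measured 11.29, 11.64 and 11.85 against 11.90, 12.13 and 12.21 (-0.53 ± 0.10; adjusted p = 0.0114), without overlap and with 12.35 to 12.67 in WT. Slc2a1, or GLUT1, the transporter of the fetal heart, measured 10.59, 10.87 and 11.14 against 9.95, 10.17 and 10.61 (0.63 ± 0.13; adjusted p = 0.0147), with 9.70 to 10.21 in WT and 11.20 on replicate 11. The amylases Amy2a5 and Amy1, close copies whose probes may share transcripts, differed by -0.69 ± 0.15 and -0.54 ± 0.13, and the muscle mutase Pgam2 by -0.33 ± 0.08. The list's count was 3 without replicate 10 or 13 and 12 without 8, 1 with replicate 11 or under chip blocking, and 1 higher and 8 lower with WT hearts in the blocked fit.

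**Figure D3:**
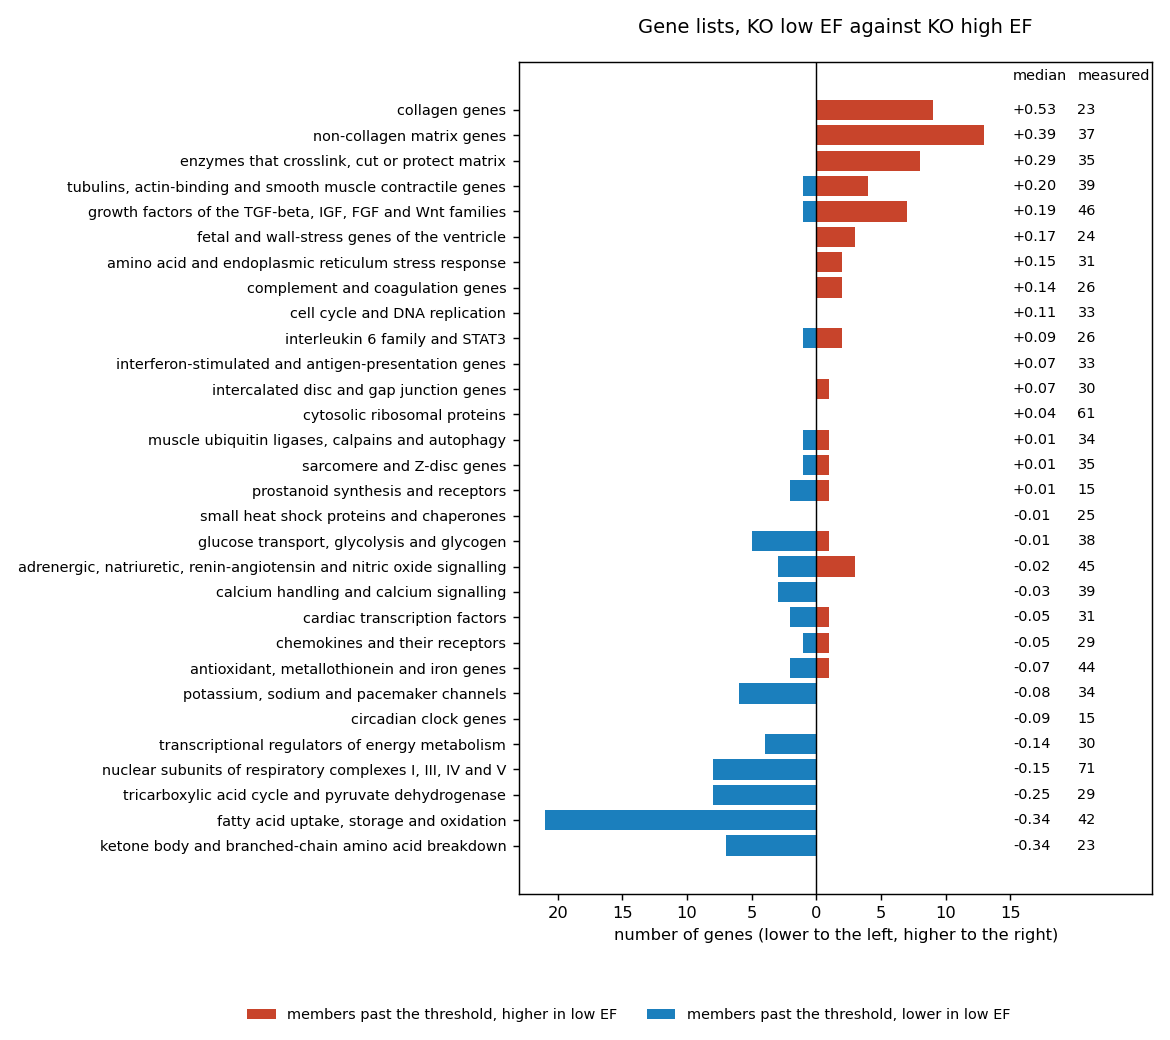
Number of genes past the threshold in each of 30 pathway lists, higher in low EF hearts to the right and lower to the left, with the median log2 difference and the number of measured genes beside each list. Matrix lists lie at the top with calls to the right alone, and lists of fuel oxidation at the bottom with calls to the left alone.

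Collagen genes rose in 9 of 23 measured genes and fell in none, against 2.02% of all genes higher, with a median of 0.53. Their mean level was 10.28 to 10.41 in low EF, 9.58 to 10.31 in high EF and 8.85 to 9.13 in WT hearts, with an overlap through replicate 8. The smallest adjusted p was that of Col12a1, a collagen that lines fibril surfaces in tendon and muscle. It measured 8.27, 8.47 and 8.81 in low EF, 7.25, 7.49 and 7.97 in high EF and 6.73 to 7.42 in WT hearts, without overlap of the KO classes (0.96 ± 0.11; adjusted p = 0.00222). Col16a1, another collagen of fibril surfaces, measured 11.37, 11.44 and 11.73 against 10.33, 10.49 and 11.28, with 9.01 to 9.76 in WT (0.83 ± 0.13; adjusted p = 0.00782). The network collagens Col8a2 and Col8a1 rose by 1.22 ± 0.28 and 0.92 ± 0.21, and the basement membrane chains Col4a1, Col4a2 and Col18a1 by 0.57 ± 0.13, 0.53 ± 0.10 and 0.43 ± 0.11. A further, dimmer Col8a2 probe measured 0.18 ± 0.11 and did not pass. Of the main fibril collagens, Col1a1 rose by 0.62 ± 0.16 (adjusted p = 0.0367; 12.03 to 12.54 against 11.18 to 12.26), and Col3a1 measured 10.27 to 11.10 against 10.02 to 11.33 (0.18 ± 0.18; adjusted p = 0.679). The median was 0.76, 0.29 and 0.11 within chips 055, 046 and 006. The count was 2 with replicate 11, 1 under chip blocking (Col12a1) and 10 with WT hearts in the blocked fit. It was 3 without replicate 10 or 13, 5 without 2 or 9 and 15 without 8.

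Other matrix proteins rose in 13 of 37 measured genes, against 2.02% of all genes, and fell in none (median 0.39). Prelp, a proteoglycan that anchors basement membranes to collagen, measured 12.92, 13.96 and 14.46 against 12.04, 12.67 and 13.27, with 11.57 to 12.63 in WT (1.07 ± 0.24; adjusted p = 0.0214). The classes overlapped, and on replicate 11 the probe read 6.06, with a difference of 2.03 and an adjusted p of 0.425 when that array was in the fit (0.00568 to 0.425 over the alternatives). Fbn1, the fibrillin of microfibrils, measured 11.30, 11.45 and 11.85 against 10.41, 10.66 and 11.14, without overlap (0.73 ± 0.12; adjusted p = 0.00908). The microfibril partners Mfap4 and Mfap5 rose by 0.96 ± 0.20 and 0.95 ± 0.19, elastin (Eln) by 0.93 ± 0.25, and the small proteoglycans Fmod and Bgn by 1.03 ± 0.23 and 0.72 ± 0.15. Fibronectin (Fn1), Fbln2, Thbs1, Thbs3, Ltbp3 and Ltbp4, of which the latter pair holds latent TGF-beta, rose by 0.46 ± 0.12 (Thbs3) to 0.65 ± 0.15 (Ltbp3). Comp, a matrix protein of tendon and cartilage, had the largest difference of the list but a wide spread, with 10.79, 13.31 and 14.52 in low EF and 8.76, 10.67 and 12.68 in high EF hearts (2.12 ± 0.63; adjusted p = 0.0711). The list's count was 1 with replicate 11, 0 under chip blocking and 12 with WT hearts in the blocked fit. It was 4 without replicate 12 or 13, 5 without 10, 6 without 2 and 7 without 1 or 9.

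Enzymes that crosslink, cut or protect matrix rose in 8 of 35 measured genes, against 2.02% of all genes, and fell in none (median 0.29). Lox, lysyl oxidase, measured 11.06, 11.28 and 12.43 in low EF and 9.49, 10.40 and 10.98 in high EF hearts, with 6.92 to 8.75 in WT. The KO classes did not overlap, and the difference was 1.24 ± 0.24 (2.36-fold higher; adjusted p = 0.0138, 0.0033 to 0.226 over the alternatives). Replicate 11 read 5.90, below every WT heart, and with it the difference was 1.86 (adjusted p = 0.226). Plod2, which hydroxylates collagen lysines, measured 9.56, 9.93 and 10.01 against 9.08, 9.24 and 9.60 (0.56 ± 0.10; adjusted p = 0.0121). Mmp14, a membrane-bound collagenase, measured 11.07, 11.53 and 11.66 against 10.70, 10.79 and 11.11 (0.59 ± 0.11; adjusted p = 0.0121). A further Plod2 probe rose by 0.51 ± 0.11. Dimmer probes of Plod2 and Mmp14 measured -0.07 ± 0.13 and -0.27 ± 0.11, and neither passed. The procollagen proteinases Adamts2 and Bmp1 rose by 0.70 ± 0.16 and 0.42 ± 0.10, and Loxl1, Tgm2 and Adamts10 by 0.52 ± 0.14, 0.46 ± 0.10 and 0.39 ± 0.10. Timp1, an inhibitor of matrix proteinases, measured 11.83, 13.28 and 14.12 against 11.71, 12.45 and 13.63, above its WT range of 8.16 to 10.18 in both classes, and did not pass between them (0.45 ± 0.41; adjusted p = 0.638). No enzyme of the list passed with replicate 11 or under chip blocking, 6 did with WT hearts in the blocked fit, and leaving out replicate 2, 12 or 13 gave 3, and 1 or 10 gave 4, and 9 gave 5.

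Genes of the TGF-beta, IGF, FGF and Wnt families, with ligands, antagonists, receptors and 1 channel partner among the calls, rose in 7 of 46 measured genes and fell in 1 (median 0.19). Of all genes, 2.02% were higher and 2.58% lower. Dkk3, a secreted protein of the dickkopf family, measured 10.53, 11.25 and 12.10 against 9.27, 9.91 and 10.90 (1.25 ± 0.29, 2.38-fold higher; adjusted p = 0.0251), and 2 further probes rose by 0.58 ± 0.15 and 1.11 ± 0.29. Of the WT hearts, replicates 8 to 11 lay between 10.18 and 11.52 for Dkk3, among the KO hearts, and the other 7 lay between 7.23 and 8.69, below every high EF heart. Fstl1, a secreted follistatin-like protein, measured 12.07, 12.34 and 12.43 against 11.31, 11.70 and 12.03, without overlap (0.63 ± 0.11; adjusted p = 0.01). Tgfb3 and the receptors Tgfbr1 and Igf1r rose by 0.51 ± 0.11, 0.53 ± 0.14 and 0.46 ± 0.10, the antagonists Fstl3 and Sfrp1 by 0.70 ± 0.17 and 0.87 ± 0.24, and Fgf13, an intracellular partner of sodium channels, differed by -0.41 ± 0.10. With replicate 11 the count was 1, under chip blocking 0 and with WT hearts in the blocked fit 4. It was 2 without replicate 13, 3 without 2 or 12, 4 without 1, 3 or 10, 5 without 9, 13 without 8 and 14 without 6.

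**Figure D4:**
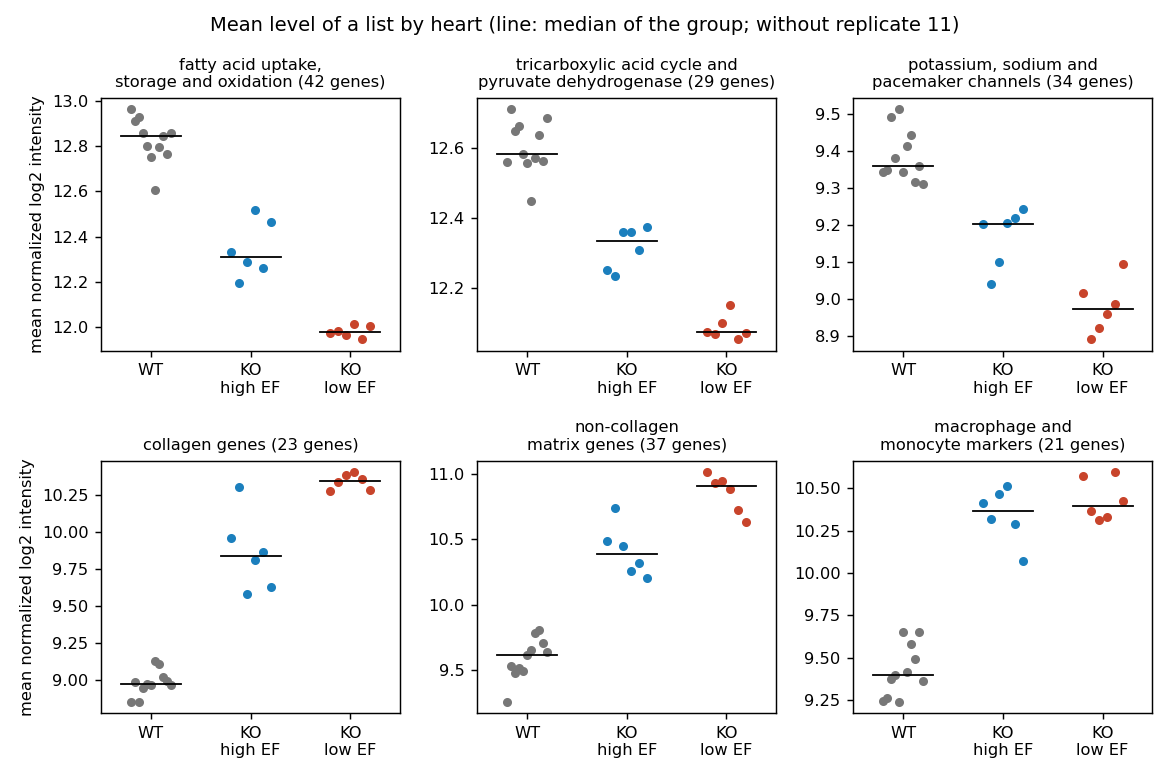
Mean normalized log2 intensity over all measured genes of 6 lists in each heart, with WT in grey, KO high EF in blue and KO low EF in red, and a line at the median of each group. The fatty acid and tricarboxylic acid lists separate the 2 KO classes, 1 high EF heart (replicate 8) reaches the low EF hearts for collagens, and macrophage markers overlap between the classes while both lie above WT.

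Markers of other cell types were examined beside these groups. Of 20 fibroblast markers 2 rose (Mfap5 and Col1a1, which the matrix and collagen lists also hold), against 2.02% of all genes, and none fell. The median of the 20 was 0.22. Their mean level was 10.82 to 11.31 in low EF, 10.81 to 11.12 in high EF and 10.10 to 10.42 in WT hearts. Pi16 measured 12.31, 13.05 and 13.13 against 12.02, 12.20 and 12.97 (0.54 ± 0.18; adjusted p = 0.109) and Cd248 10.92, 11.42 and 11.57 against 10.49, 10.87 and 11.14 (0.47 ± 0.13; adjusted p = 0.0541). Without replicate 6 the fibroblast count was 6, without 8 it was 4, and it was 1 without any of 2, 3, 4, 5, 9, 10, 12 or 13. No fibroblast marker passed with replicate 11 or under chip blocking, and 3 passed with WT hearts in the blocked fit. The fibroblast median was 0.32, -0.05 and 0.18 within chips 055, 046 and 006. None of the 21 macrophage and monocyte markers passed (median 0.13), and their mean level was 10.31 to 10.60 in low EF, 10.07 to 10.51 in high EF and 9.24 to 9.65 in WT hearts. Likewise 0 of 17 endothelial, 0 of 12 smooth muscle and pericyte, 0 of 8 T and natural killer cell, 0 of 5 B cell, 0 of 8 neutrophil and mast cell, 0 of 4 adipocyte, 0 of 4 erythroid and 0 of 9 skeletal muscle markers passed, with medians from -0.05 to 0.13. The T cell marker Trac (6.60 to 7.20 in KO hearts) lay near the array median. The part of these cell types in the differences of matrix genes was not tested.

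Of the 5 measured cartilage and tendon markers 2 rose, Sox9 (0.59 ± 0.15) and Fmod. Of all genes, 2.02% were higher and 2.58% lower. The cartilage list had a median of 0.59 and a mean level of 8.68 to 9.67 in low EF, 7.99 to 9.10 in high EF and 7.33 to 8.40 in WT hearts. WT replicates 8 to 11 lay at 8.20 to 8.40, and the other WT hearts at 7.33 to 7.63, below every high EF heart. Sox9, Fmod and Comp are also in the transcription factor or matrix lists, and the cartilage collagen Col2a1 stayed near the array median (6.50 to 7.12). The atrial marker Stard10 fell by 0.60 ± 0.13, while Myl4, the atrial light chain, measured 9.18, 9.28 and 9.37 against 8.72, 8.96 and 9.23 in KO hearts and up to 14.18 in WT. Replicate 11 read 11.59 for Myl4, above the other KO hearts. Among 7 measured nerve and Schwann cell markers Uchl1, a ubiquitin hydrolase of neurons, rose by 0.87 ± 0.19, but 4 lay below 0 and the median was -0.11. Among 9 measured lymphatic and mesothelial markers Prox1 fell by 0.43 ± 0.11, but 6 lay above 0 and the median was 0.14. No cartilage marker passed without replicate 2, 10 or 13. The cartilage, atrial, nerve and lymphatic lists had no call with replicate 11 or under chip blocking. With WT hearts in the blocked fit 1 cartilage and 1 nerve marker passed as higher, 1 lymphatic marker each way and no atrial one.

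Genes of wall stress and the fetal programme rose in 3 of 24 measured, against 2.02% of all genes, and fell in none (median 0.17). Nmrk2, a muscle kinase that feeds nicotinamide riboside into NAD synthesis, measured 13.35, 13.60 and 13.75 in low EF, 11.27, 12.04 and 13.21 in high EF and 8.21 to 10.46 in WT hearts, with 12.73 on replicate 11. The low EF hearts stood above every high EF heart and spanned a narrow range. The difference was 1.39 ± 0.25 (2.62-fold higher; adjusted p = 0.0114, 0.00121 to 0.0758 over the alternatives), and a further probe rose by 1.37 ± 0.28 while a dimmer one measured -0.18 ± 0.10 (adjusted p = 0.36). Ccn2, the connective tissue growth factor, rose by 0.65 ± 0.13 (adjusted p = 0.0166; 15.53, 15.78 and 15.89 against 14.72, 15.09 and 15.69), with 0.77 ± 0.16 on its other probe. Clu, the extracellular chaperone clusterin, rose by 0.44 ± 0.11, without overlap. The count was 5 without replicate 6 and 8 without 8, 1 with replicate 11, 0 under chip blocking and 3 with WT hearts in the blocked fit.

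The natriuretic peptides and several other common markers of heart failure did not pass, and some lay at the top of the scale, where differences are compressed. Nppa, the atrial natriuretic peptide, measured 15.89, 15.94 and 15.99 against 15.91, 15.96 and 15.98 with 13.56 to 15.59 in WT (-0.01 ± 0.06; adjusted p = 0.943). Nppb, the brain natriuretic peptide, differed by 0.11 ± 0.06 (adjusted p = 0.407), Ankrd1 by 0.05 ± 0.06, Acta1, the skeletal alpha-actin, by 0.03 ± 0.11 and Atp2a2, the calcium pump SERCA2, by 0.05 ± 0.06. Their medians in both classes lay at or above 15.84. Myh6, the fast adult myosin heavy chain, measured -0.03 ± 0.06 on its bright probe (adjusted p = 0.836) but fell by 0.53 ± 0.09 on its dimmer one (mean 14.08 against 14.61, and 15.09 in WT; adjusted p = 0.00866). Myh7, the slow chain of the fetal mouse heart, measured 11.66, 12.86 and 13.36 against 10.91, 11.68 and 12.83 (0.90 ± 0.33; adjusted p = 0.138), and its 2 further probes 0.92 ± 0.28 and 0.93 ± 0.29, also short of the threshold. Gdf15, a stress-induced cytokine, measured 10.98, 12.23 and 12.52 against 10.90, 11.24 and 11.43 (0.75 ± 0.20; adjusted p = 0.0506), and 12.40 on replicate 11. Postn, a matrix protein of activated fibroblasts, measured 6.77, 7.39 and 7.64 against 6.22, 6.78 and 7.42 (0.39 ± 0.20; adjusted p = 0.315), close to the array median.

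Potassium, sodium and pacemaker channels fell in 6 of 34 measured genes and rose in none (median -0.08; mean level 8.89 to 9.09 in low EF and 9.04 to 9.24 in high EF hearts). Of all genes, 2.58% were lower. Kcnd2 and its partner Kcnip2 make the transient outward current that repolarises the mouse ventricle. Kcnd2 measured 8.44, 8.61 and 8.96 in low EF and 9.09, 9.40 and 9.77 in high EF hearts, with 10.26 to 10.93 in WT, so the KO classes did not overlap and both lay below WT (-0.80 ± 0.12; adjusted p = 0.00656). Replicate 11 read 7.07, and with it the adjusted p was 0.667 (0.000398 to 0.667 over the alternatives). Kcnip2 differed by -0.63 ± 0.16. Kcnj3, a subunit of the G protein-gated inward rectifier, measured 6.61, 6.93 and 7.08 against 7.36, 7.45 and 7.73 (-0.61 ± 0.09; adjusted p = 0.00686) and Kcnv2, a modifying potassium channel subunit, 7.00, 7.17 and 7.25 against 7.40, 7.92 and 8.34 (-0.76 ± 0.14; adjusted p = 0.0124). Neither overlapped, although both lay close to the array median in low EF hearts. Scn4b, a beta subunit of sodium channels, measured 8.80, 9.70 and 10.48 against 10.12, 11.00 and 11.34, with overlap (-1.12 ± 0.26, 2.18-fold lower; adjusted p = 0.0251), and Scn10a differed by -0.29 ± 0.07. The count was 2 with replicate 11 and 2 under chip blocking (Kcnd2 and Kcnj3), 5 with WT hearts in the blocked fit, 3 without replicate 1, 2, 9 or 12 and 9 without 8.

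Of 39 measured calcium handling genes 3 fell, against 2.58% of all genes, and none rose (median -0.03). In this list 2 genes passed with replicate 11, none under chip blocking and 3 with WT hearts in the blocked fit. Hrc, a calcium-binding protein of the sarcoplasmic reticulum, measured 13.60, 13.71 and 14.10 in low EF and 14.06, 14.50 and 14.79 in high EF hearts, with 14.90 to 15.28 in WT (-0.67 ± 0.13; adjusted p = 0.0119). Asph, whose locus also encodes the reticulum protein junctin, measured 10.03, 10.13 and 10.19 against 10.17, 10.71 and 10.89 (-0.53 ± 0.10; adjusted p = 0.0124). That fall rests on 1 of 13 kept Asph probes, since the 12 further ones differed by -0.16 to 0.27 and none passed. Pln, phospholamban, the brake on SERCA2, fell by 0.39 ± 0.10 (adjusted p = 0.0479; 0.0239 to 0.292 over the alternatives) and passed in 2 of the 12 fits that leave out 1 heart. Ryr2, the release channel, measured 13.72, 13.86 and 13.95 against 13.94, 14.02 and 14.13 (-0.18 ± 0.07; adjusted p = 0.147). Among 35 sarcomere and Z-disc genes Ky, a muscle peptidase, was lower (7.60, 8.76 and 9.60 against 9.50, 9.76 and 10.38; -1.17 ± 0.26, 2.25-fold; adjusted p = 0.023) and Synpo2l, an actin-binding protein of the Z-disc, higher (0.86 ± 0.21). With 1 call each way, the sarcomere list was near the shares of all genes, 2.02% higher and 2.58% lower. No gene of that list passed with replicate 11, under chip blocking or without any of replicates 2, 3, 5, 10, 12 or 13, and 5 passed without 8. In the intercalated disc list Itga5, an integrin for fibronectin, rose by 0.50 ± 0.09, without overlap, as 1 of 30 genes, near the share of all genes. No gene of the disc list passed with replicate 11 or under chip blocking, and 2 did with WT hearts in the blocked fit.

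Signalling genes went in both directions. Of 45 adrenergic, natriuretic, renin-angiotensin and nitric oxide genes, 3 rose and 3 fell, against 2.02% and 2.58% of all genes. Ddah1, which breaks down an endogenous inhibitor of nitric oxide synthase, measured 10.17, 10.70 and 10.72 in low EF and 8.97, 9.53 and 10.16 in high EF hearts, with 8.28 to 8.79 in WT. The classes did not overlap (1.03 ± 0.18, 2.05-fold higher; adjusted p = 0.00955, 0.00067 to 0.0761 over the alternatives). Ace, which makes angiotensin II, measured 10.87, 11.52 and 11.86 against 10.30, 10.42 and 11.02 (0.87 ± 0.17; adjusted p = 0.0142), while its precursor Agt measured 6.53, 6.93 and 7.16 against 7.17, 7.58 and 7.91, without overlap (-0.65 ± 0.13; adjusted p = 0.0158). Ece1, which makes endothelin, rose by 0.34 ± 0.08, and the alpha1-adrenergic receptors Adra1a and Adra1b fell by 0.30 ± 0.08 and 0.62 ± 0.13. The list's count was 3 without replicate 13, and 2, both higher, with replicate 11. No gene passed under chip blocking, and 3 higher and 2 lower did with WT hearts in the blocked fit.

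Among 15 measured genes of prostanoid synthesis and receptors, the family to which EP4 belongs, Ptgis rose and Cbr1 and Pla2g5 fell. Of all genes, 2.02% were higher and 2.58% lower. Ptgis, prostacyclin synthase, measured 12.24, 12.56 and 12.64 in low EF, 11.52, 11.79 and 12.40 in high EF and 10.44 to 11.13 in WT hearts, with 12.12 on replicate 11. The classes overlapped in part (0.65 ± 0.13; adjusted p = 0.0143, 0.00111 to 0.116 over the alternatives). Cbr1, a carbonyl reductase that turns prostaglandin E2 into F2alpha, and Pla2g5, a secreted phospholipase, differed by -0.32 ± 0.09 and -0.67 ± 0.18 (adjusted p = 0.0454 and 0.0494). Ptgds, the lipocalin-type prostaglandin D synthase, measured 13.49, 13.69 and 13.80 against 13.79, 13.93 and 14.01 (-0.25 ± 0.07; adjusted p = 0.0671). No gene of the list passed with replicate 11 or under chip blocking, Ptgis passed with WT hearts in the blocked fit, and 1 gene passed without any of replicates 1, 2, 3, 7, 10, 12 or 13.

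Inflammation and immunity lists held at most 3 calls each. Ccl11, or eotaxin, which draws eosinophils, measured 6.83, 7.66 and 8.19 in low EF and 8.16, 8.91 and 10.02 in high EF hearts, with 9.06 to 10.25 in WT and 10.37 on replicate 11. The classes overlapped through replicates 3 and 8, and the difference was -1.36 ± 0.27 (2.56-fold lower; adjusted p = 0.0137). Ccl8, a monocyte chemokine, measured 9.64, 9.97 and 10.29 against 9.97, 10.41 and 11.34 (-0.58 ± 0.19; adjusted p = 0.105), above its WT range of 6.84 to 8.86 in both classes. Cx3cl1, or fractalkine, rose by 0.53 ± 0.13, which with Ccl11 makes 1 higher and 1 lower of 29 chemokine genes. Those counts are near the shares of all genes, 2.02% higher and 2.58% lower. In the interleukin 6 list Lbp, which binds endotoxin, and Tnfrsf12a, the receptor of TWEAK, rose by 0.70 ± 0.17 and 0.52 ± 0.12 and Lifr, the receptor of leukaemia inhibitory factor, fell by 0.40 ± 0.10, of 26 genes. Serpinf1 and Plat rose by 0.76 ± 0.18 and 0.39 ± 0.10 of 26 complement and coagulation genes. Their further probes, near the array median, measured -0.06 ± 0.08 and -0.11 ± 0.07, and neither passed. The 2 rises in the interleukin 6 list and the 2 in the complement list lay above the share of all genes, 2.02% higher. The 1 fall was near its share, 2.58% lower. No gene of the interleukin 6 list passed without replicate 10, 12 or 13, and 1 without 2, 3, 5 or 7. No complement gene passed without 1, 2, 3, 10, 12 or 13, and 1 without 4, 5, 7 or 9. Neither list had a call with replicate 11 or under chip blocking. No chemokine gene passed with replicate 11, and under chip blocking Ccl11 (adjusted p = 0.0723; 0.00232 to 0.0909 over the alternatives) and Cx3cl1 did not pass, while Ccl8 passed as lower (adjusted p = 0.044; 0.0403 to 0.289 over the alternatives). Of the chemokine genes 1 passed without any of replicates 1, 2, 3, 9, 10, 12 or 13. None of the 33 interferon, 33 cell cycle, 15 circadian clock, 25 chaperone or 61 ribosomal protein genes passed, with medians of 0.07, 0.11, -0.09, -0.01 and 0.04.

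Lgals3 had the largest rise of the cytoskeleton list. This sugar-binding galectin 3, made largely by macrophages, measured 12.32, 12.58 and 13.43 in low EF, 10.93, 11.63 and 11.99 in high EF and 8.76 to 11.01 in WT hearts, with 11.41 on replicate 11. The low EF hearts all lay above the high EF hearts (1.11 ± 0.20, 2.16-fold higher; adjusted p = 0.01, 0.00453 to 0.101 over the alternatives), while macrophage markers overlapped, as given above. Also in this list of 39, Myh10, a nonmuscle myosin, Lmna, the nuclear lamin, and S100a11 rose by 0.55 ± 0.12, 0.48 ± 0.10 and 0.40 ± 0.10, and Ttll1, a tubulin glutamylase, measured 8.69, 9.10 and 9.51 against 9.35, 9.90 and 10.64 with 11.35 to 11.78 in WT (-0.85 ± 0.19; adjusted p = 0.023). Among 31 cardiac transcription factors Hopx, a homeodomain-only cofactor of heart development, measured 12.48, 13.10 and 13.37 against 13.32, 13.99 and 14.31 (-0.87 ± 0.17; adjusted p = 0.0138), Prox1 fell and Sox9 rose. Nupr1, a stress-induced chromatin protein, measured 10.77, 11.77 and 12.14 against 10.34, 10.49 and 10.96 (1.03 ± 0.20, 2.04-fold higher; adjusted p = 0.0133). With the amino acid transporter Slc7a5 (0.52 ± 0.12) it makes 2 rises among 31 genes of the amino acid and endoplasmic reticulum stress response. Of all genes, 2.02% were higher and 2.58% lower. The 1 rise among the transcription factors and the 1 fall in the cytoskeleton list were near these shares. The cytoskeleton count of 5 was 1 without replicate 13, 2 without 2, 3 without 3 or 10 and 8 without 8, 1 with replicate 11, 0 under chip blocking and 4 higher and 1 lower with WT hearts in the blocked fit. The transcription factor and stress response lists had no call with replicate 11 or under chip blocking, and 1 gene of each passed without any of replicates 2, 3, 5, 9 or 13, and likewise without 10 for the former and 12 for the latter.

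Further genes with large differences belong to no single pathway. Ecrg4, a secreted peptide precursor, had the largest rise among genes past the threshold (1.75 ± 0.39, 3.37-fold higher; adjusted p = 0.0226, 0.00508 to 0.157 over the alternatives), from 6.93, 7.34 and 8.68 in high EF to 8.11, 9.43 and 10.75 in low EF hearts, and WT hearts ranged over 6.05 to 8.70. WT replicates 8 to 11 lay between 8.23 and 8.70, and the other WT hearts between 6.05 and 6.78, below every high EF heart. Ecrg4 lost the threshold without replicate 2, 10, 12 or 13. Krt18, an epithelial keratin, measured 8.45, 9.00 and 9.50 against 7.16, 7.72 and 8.84 (1.20 ± 0.26; adjusted p = 0.0192), Nbl1, an antagonist of bone morphogenetic proteins, 10.13, 11.43 and 11.62 against 9.75, 9.96 and 10.63 (1.09 ± 0.22; adjusted p = 0.0163), and Nkd2, an inhibitor of Wnt signalling, 9.06, 9.45 and 9.98 against 7.78, 8.33 and 9.11 (1.06 ± 0.20; adjusted p = 0.0115). The remaining rises were Itgbl1, a secreted integrin-like protein (1.06 ± 0.26), and Nrip3 (1.03 ± 0.19).

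Among the falls, Cmss1 measured 9.66, 9.96 and 10.18 in low EF and 10.55, 11.14 and 11.22 in high EF hearts, without overlap, 10.85 to 11.73 in WT and 11.36 on replicate 11. It passed under all 28 alternatives (-1.08 ± 0.13, 2.11-fold lower; adjusted p = 0.00222, 0.000146 to 0.0299). Inmt, a methyltransferase of indole amines, fell by 1.70 ± 0.35 (3.26-fold; 7.00, 8.07 and 8.54 against 8.35, 9.78 and 10.40), and Cyp2b10, a cytochrome P450 of drug metabolism, by 1.46 ± 0.37 (2.75-fold; 7.43, 7.85 and 8.54 against 7.62, 9.69 and 10.49). Cyp2b10 was unstable: it passed in 4 of the 12 fits that leave out 1 heart, and on chip 006 the low EF heart lay 0.90 above the high EF one. P2ry1, an ADP receptor, measured 8.79, 9.16 and 9.79 against 9.77, 10.25 and 10.33 (-0.90 ± 0.15; adjusted p = 0.00882). Wnk2, a kinase of ion transport, Tmprss13, a membrane serine protease, and Myorg, a glycosidase, fell by 0.90 ± 0.17, 0.89 ± 0.21 and 0.96 ± 0.26. Gstk1, a glutathione transferase of mitochondria and peroxisomes, fell by 0.88 ± 0.17 (10.92, 11.09 and 11.67 against 11.42, 12.08 and 12.61), but replicate 11 read 6.01 and with it the difference was -0.03 (adjusted p = 0.993; 0.000898 to 0.993 over the alternatives). In the antioxidant list of 44 genes Ephx2, a lipid epoxide hydrolase, also fell over 6 against 6 hearts (with replicate 11, which read 6.07, its difference was 0.32) and Sod3, the extracellular superoxide dismutase, rose (0.57 ± 0.15). Asb10, of ubiquitin ligases, fell by 0.50 ± 0.11 (with replicate 11, which read 5.92, 0.04) and Ctsk, cathepsin K, rose by 0.41 ± 0.11, of 34 proteolysis genes. With 1 or 2 calls in a direction, the antioxidant and proteolysis lists were near the shares of all genes, 2.02% higher and 2.58% lower. The antioxidant count of 3 was 0 without replicate 13, 1 without 10, 5 without 6 and 8 without 8, and the proteolysis count of 2 was 0 without 2 or 13, 3 without 8 and 1 without any other heart. Neither list had a call with replicate 11 or under chip blocking.

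**Figure D5:**
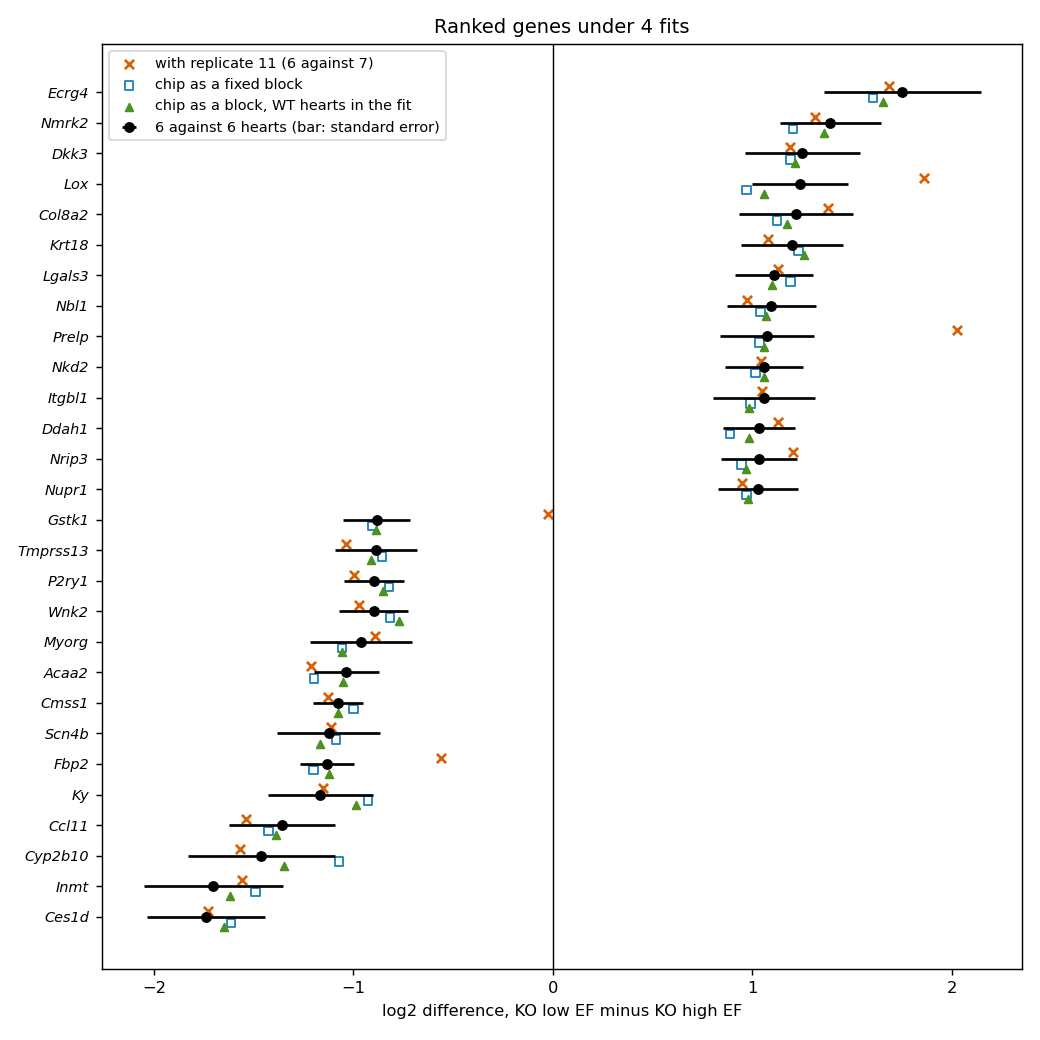
Log2 difference of 28 of the 30 ranked genes under 4 fits: 6 against 6 hearts with its standard error (black), with replicate 11 (orange crosses), under a fixed chip term (blue squares) and with WT hearts added to that block (green triangles). All markers lie on the same side of 0 as the black point, and the crosses stand far off for Lox, Prelp, Fbp2 and Gstk1, which replicate 11 reads between 5.90 and 6.06.

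Blocking by chip moved the 15 rises to between 0.89 and 1.60, from 1.03 to 1.75, and the 15 falls to between -1.61 and -0.82, from -1.74 to -0.88. The 4 ranked genes past the threshold under chip blocking were Nkd2, Fbp2, Cmss1 and Acaa2. In 6 ranked genes (Lox, Col8a2, Prelp, Nrip3, Fbp2 and Gstk1) replicate 11 read below 7, whichever way the gene differed between the classes. The 30 genes had 16 further kept probes, of which 10 passed in the same direction and none in the other.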

How the data were processed

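Left ventricular RNA of 24 mice was hybridised to 1 Illumina array each. The authors deposited linear probe intensities with no normalization stated, and a normalized log2 value table of unstated transformation, which served as an alternative. Their deposited summary table holds group means on the log2 scale, group SDs and p-values of a test not stated, and of it only probe names were used. BeadStudio and R 2.8.0 are named, per the submitters' processing notes.

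Intensities of 23 arrays, all but KO high EF replicate 11, were corrected with normexp (offset 50), taken to log2 and quantile normalized with limma 3.58.1 in R 4.3.3. The values given for replicate 11 come from the same steps on all 24 arrays. Probes above their array's median on at least 6 of the 12 KO arrays were kept, 22593 of 45281. The classes were compared with lmFit and eBayes, with Benjamini-Hochberg adjustment over all kept probes and a threshold of 0.05. Platform annotation named 34885 probes and the authors' table a further 2735, while 7661 stayed unnamed and 18 matched several genes. Lists used the brightest kept probe of a gene.

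Genes were named by rule: the 15 called genes with the greatest rise and the 15 with the greatest fall, taking for each gene its probe with the smallest p and asking that every array of the group with more signal exceed its median, 15 set heart failure genes, and up to 4 members of each list with the smallest p. Further members past the threshold and Comp were named after their values were seen. Of the 30 ranked genes 2 are not reported here, and counts over the 30 include them. The classes, members and lists were chosen with earlier results of these data known, and 1333 of 1347 list entries were on the array. The fit was tested on simulated data with independent noise for each probe and no chip or array effect, so that test cannot show how the fit handles such effects. Promoter windows are RefSeq's, of GRCm38.p6. Alternatives changed the arrays and groups in the fit, normalization, background, filter, chip, age, moderation and single hearts.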

Additional observations from a re-analysis of the deposited data

Results flagged for a closer look

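Within each EF class, 418 groups of values were examined for a heart far from its class; 26 were found and 25 are given here. Chance alone gives about 1 in 20. The median correlation of the replicate 11 array with the others, 0.839, stood apart from the next lowest of its class, 0.982.

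Replicate 8 was the outlying high EF heart for 7 genes. It was the lowest for the glucose transporter Slc2a4 (11.9), for Ephx2 (11.07), Asph (10.17) and Prox1 (9.418), and the highest for the ribosomal protein Rpl10 (15.4), the podoplanin gene Pdpn (11.54) and the smooth muscle gene Tagln (8.122). Of the other high EF hearts, replicate 10 was highest for Fbp2 (10.45) and for the mast cell protease Mcpt4 (7.475), replicate 7 lowest for the haemoglobin gene Hba-a1 (15.48) and replicate 9 lowest for the endothelial gene Eng (11.5).

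Among the low EF hearts, replicate 1 was lowest for Acta1 (15.37) and the small heat shock protein Hspb1 (13.65) and highest for Ivd (12.44). Replicate 2 was lowest for Fstl1 (12.07) and highest for the chemokine Ccl17 (7.313), and replicate 4 was highest for Acad8 (9.24). Replicate 5 was lowest for Herpud1 (13.22) and highest for Fbn1 (11.85) and the clock gene Arntl (9.289). Replicate 6 was lowest for the fibroblast marker Pi16 (12.31), for Nr2f2 (7.397) and for Col2a1 (6.496) and highest for Adra1b (7.324).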

How the results depend on the processing

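The main fit had 892 probes past the threshold. With replicate 11 in the fit 118 passed. Replicate 11 with array weights, which gave that array a weight of 0.0434, gave 1557, of which 835 were among the 892. Median scaling gave 273, the chip as a fixed block 34, chip 055 alone 126 and the omission of chip 058 gave 23. In all of these but median scaling, the difference rested on fewer hearts. Leaving out 1 heart gave 305 (without replicate 13) to 1565 (without replicate 8). The other alternatives, among them the WT hearts with chip block, which was chosen after seeing the data, gave 745 to 1157. Replicate 11 turned 4 named genes that had fallen, with the same value with or without WT in the fit: Ephx2 at 0.32, Mpc2 at 0.27, a second probe of Gstk1 at 0.11 and Asb10 at 0.043, where it read near or below the array median. Over all named genes and alternatives, 4832 values kept their side of the threshold, 774 lost the threshold and 105 gained it. A further 8 reversed direction where the main or the alternative fit called the gene. The 4832 include changes of direction where neither fit called the gene. The causes were not tested. The age difference stayed short of the threshold. No paired analysis was possible because low EF hearts are numbered 1 to 6 and high EF hearts 7 to 13, with no number shared. The median difference over all tested probes was 0.00603 with median scaling and -0.0114 with replicate 11. Signal over background limits the dim end: 10561 kept probes had a mean under 8, against an array median of 6.75.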
